A study of Rattus norvegicus with 9 samples.

Results

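The receptors described here are the orphan and adhesion G protein-coupled receptors of a rat oligodendrocyte precursor cell culture, taken as every gene whose symbol is Gpr or Adgr followed by its number. The deposited tables held 98 rows with such symbols for 97 genes, among 32623 gene identifiers: 73 Gpr genes and 24 Adgr genes. One symbol, Adgrg7, had more than one row, and the row with most reads was kept. No measured value entered the choice. The symbol alone makes a gene a receptor here, whether or not its protein is known to act as one. RNA sequencing had been run on oligodendrocyte precursor cells (OPCs) cultured from wild-type rat brain, with no bavisant (basal), with 1 µM or with 10 µM of it. Bavisant is a small molecule that blocks the histamine H3 receptor, and the series title places the experiment in drug repurposing for multiple sclerosis. Each dose had 3 libraries, named P11, P13 and P14 in the titles, and all 9 came from cells held for 5 days in the same differentiation medium. The labels do not say what a P number marks, nor that numbers are separate cultures or animals, so p-values may measure a spread that is partly technical. One protocol text writes the lower dose in mM, but both the sample labels of treatment and the series design have 1 µM, which is used here.

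G protein-coupled receptors sit in a membrane and, when a ligand binds outside, switch on heterotrimeric G proteins inside, which drive adenylyl cyclases and other effectors until kinases, arrestins and RGS proteins end the signal. Orphan receptors are those for which no ligand was known when they were named, and adhesion receptors carry a long extracellular part that binds matrix or proteins of neighbouring cells. In mice several members act in the oligodendrocyte lineage: Gpr17 marks committed precursors and holds back their maturation, Gpr37 restrains differentiation, and Adgrg1 (GPR56) keeps precursors dividing.

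The libraries held 23919373 to 33472910 reads in basal cultures, 34806211 to 43059921 at 1 µM and 38021841 to 39293190 at 10 µM. Markers of OPCs summed to between 888 and 1186 TPM (a length-corrected share of each library) over the 9 libraries, and those of mature oligodendrocytes to between 33544 and 51515 TPM. Markers of microglia (931 to 1470 TPM), astrocytes (1202 to 2175 TPM) and neurons (208 to 499 TPM) were present in every library. In such bulk RNA, fewer cells of a type and less RNA per cell cannot be told apart.

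Expression was concentrated in few receptors. Of the 97 genes, 49 averaged at least 1 TPM, 24 at least 10 TPM and 5 at least 100 TPM. The receptors summed to 1551 to 2035 TPM per library, and Gpr17 alone made 30.4% of that sum on average, the 5 highest 57.6% and the 12 highest 80.1%. After Gpr17, at 562 TPM over the 9 libraries, came Adgrg1 at 175 TPM, Adgre1 (F4/80, a macrophage surface receptor) at 118 TPM, Gpr37l1 (a relative of Gpr37 found in astrocytes) at 106 TPM and Gpr37 at 103 TPM. Neighbours in this order were within the spread of the libraries: Gpr37 ran from 64.5 to 183 TPM and Gpr37l1 from 85.4 to 122 TPM. Gpr17 was the exception, its lowest library at 381 TPM lying above the highest library of Adgrg1 at 216 TPM.

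The next 7 of the top 12 were Gpr180 (98.1 TPM), the latrophilin Adgrl1 (66.5 TPM), Adgrb2 (59.1 TPM), Gpr137 (57.3 TPM), Gpr107 (51.2 TPM), Gpr89b (45.4 TPM) and Gpr62 (37.1 TPM). Latrophilins bind teneurins and FLRT proteins of other cells, Adgrb2 belongs to the brain-specific angiogenesis inhibitor group, and Gpr62 is enriched in mature oligodendrocytes. Gpr137, Gpr107 and Gpr89b are proteins of lysosomal or Golgi membranes. Between 10 and 40 TPM lay Adgrl3 (37.1 TPM), Gpr108 (35.6 TPM), Gpr85 (32.7 TPM), Adgrb3 (21.7 TPM), Adgrl2 (17.8 TPM), Gpr155 (17.0 TPM), Adgra2 (16.0 TPM), Gpr162 (13.9 TPM) and Gpr34 (11.8 TPM), together with Adgra3, Gpr137b and Gpr19. Of the 33 genes too low for the test described next, 8 had no read in any library, which allows up to 0.00935 CPM (a share of library reads; 3 reads over all libraries). They were Gpr33, Gpr39, Gpr55, Gpr119, Gpr142, Gpr151, Gpr173 and Adgrg4. The endothelial receptors Adgrl4 and Adgrf5 were near absent, with 9 and 15 reads over the 9 libraries.

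**Figure D1:**
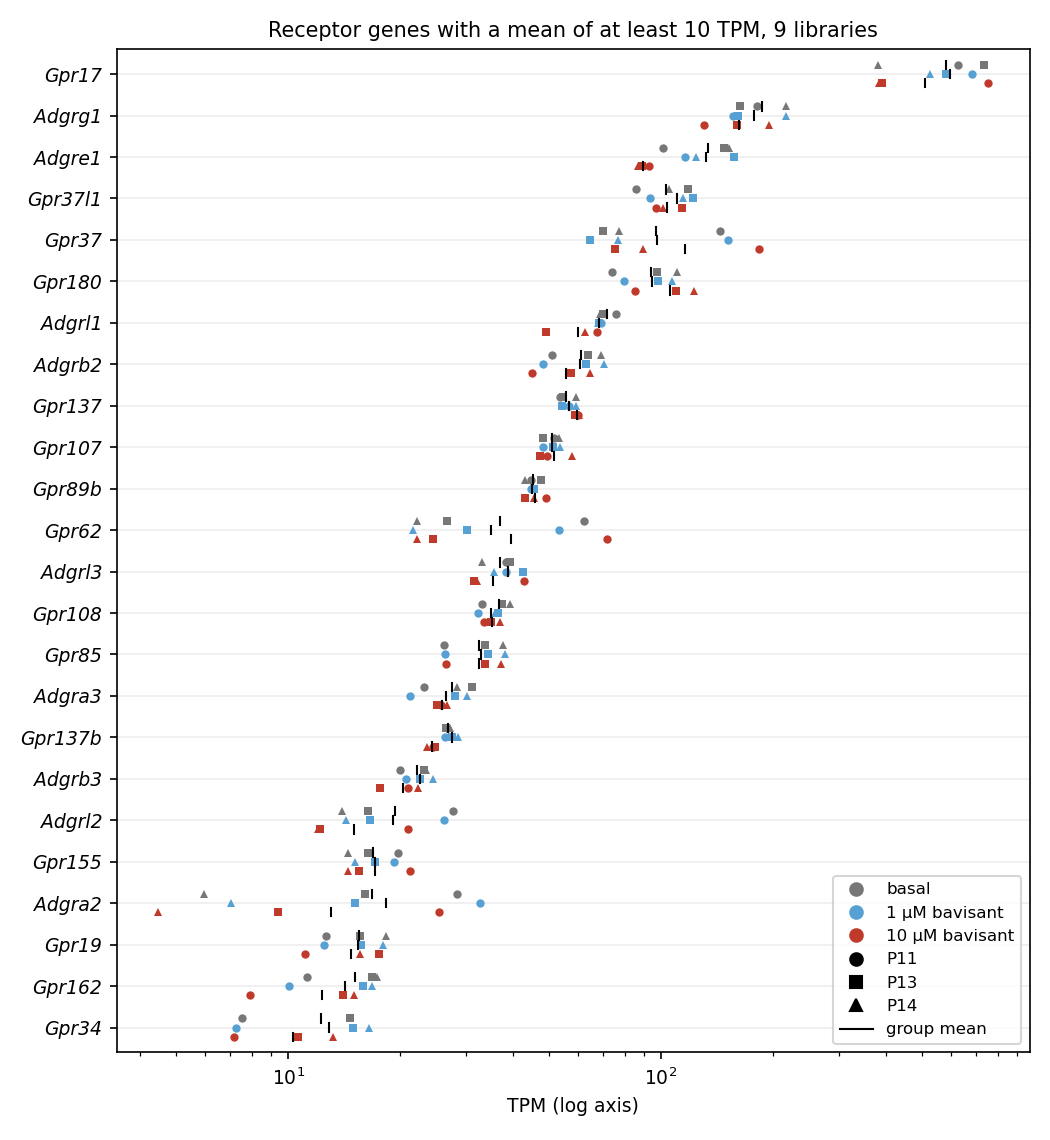
Level of the 24 receptor genes with a mean of at least 10 TPM, one row per gene, with TPM on a log axis. Each point is 1 library, the colour gives the dose, the shape the P number and the short line the mean of 3 libraries. Gpr17 stands apart at 381 to 754 TPM, and for Gpr37, Gpr62 and Adgra2 the P11 points lie to the right of the others at every dose.

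Whether bavisant changed these receptors was asked with edgeR's quasi-likelihood test on the estimated read counts, fitted over 15321 genes with Benjamini-Hochberg adjustment, a gene being called at an adjusted p under 0.05. Of the 97 receptors 64 passed the filter on low counts, 49 Gpr and 15 Adgr genes. Without regard to P number no receptor was called at 10 µM against basal, where 0% of all genes were called and the smallest adjusted p of a receptor was 0.733. In that fit 6 receptors and 808 genes had an unadjusted p under 0.05. DESeq2 called 1 receptor and 0.418% of all genes. Limma on log2 TPM, run on 14371 genes with 51 receptors, called no receptor and 0% of genes. Libraries with the same P number deviated together from their group means, so P number was also fitted as a block. With the block 4 receptors were called, which is 6.25% of those tested, against 3.96% of all genes. Of these 2 rose, Gpr37 and Gpr180, where 1.32% of all genes were called higher, and 2 fell, Adgrl2 among them, where 2.64% of all genes were called lower.

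Gpr37, the prosaposin-linked receptor that restrains oligodendrocyte differentiation in mice (identifier ENSRNOG00000002524), was the called receptor with the highest level. In P11, P13 and P14 it had 144, 69.9 and 77.2 TPM in basal cultures, 151, 64.5 and 76.8 TPM at 1 µM and 183, 75.5 and 89.2 TPM at 10 µM. The groups overlapped, and the P11 libraries were the highest at every dose, while within each P number the 10 µM library was the highest. The within-P difference of 10 µM minus basal was 0.38, 0.24 and 0.27 on the log2 CPM scale. The blocked fit gave a log2 fold change of 0.29 ± 0.05 (SE, n = 3 each, edgeR adjusted p = 0.020). Markers of mature oligodendrocytes were also higher at 10 µM, with 7 of 11 called with the block (Aspa, Cldn11, Cnp, Mag, Mbp and Mobp among them) and a summed level of 46244 to 51515 TPM at 10 µM and 34767 to 39436.5 TPM in basal cultures. Their part in the Gpr37 result was not tested.

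Gpr180, a membrane protein tied to TGF-beta signalling in fat cells (ENSRNOG00000009766), showed a rise of like size. It had 73.9, 97.6 and 110.2 TPM in basal cultures, 79.6, 97.9 and 106.7 TPM at 1 µM and 85.2, 109.6 and 122.5 TPM at 10 µM for P11, P13 and P14. Here P11 was the lowest at every dose, the reverse of Gpr37, and the groups overlapped. The blocked log2 fold change was 0.27 ± 0.04 (SE, n = 3 each, edgeR adjusted p = 0.021), from within-P differences of 0.27, 0.34 and 0.21.

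Adgrl2, a latrophilin (ENSRNOG00000032660), was called lower. Its levels were 27.8, 16.4 and 13.97 TPM in basal cultures, 26.2, 16.6 and 14.3 TPM at 1 µM and 20.9, 12.2 and 12.04 TPM at 10 µM. P11 was again the highest at every dose, and the groups overlapped. The blocked log2 fold change was −0.30 ± 0.05 (SE, n = 3 each, edgeR adjusted p = 0.024), with differences of −0.38, −0.29 and −0.21 within P11, P13 and P14. The other latrophilins were not called: Adgrl1 differed by −0.18 ± 0.07 (adjusted p = 0.172) and Adgrl3 by −0.02 ± 0.09 (adjusted p = 0.907).

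These blocked calls depended on single libraries. Leaving out any 1 basal library ended all 4 of them. Leaving out the 10 µM library of P14 ended the Gpr37 and Gpr180 calls, and the Adgrl2 call survived only the loss of the 1 µM library of P13. The adjusted p over the 9 fits without 1 library ran from 0.0261 to 0.0869 for Gpr37, from 0.0277 to 0.111 for Gpr180 and from 0.0306 to 0.103 for Adgrl2, with 1 sign throughout for each. With the block, edgeR on library totals called 7 receptors (5.44% of all genes) and DESeq2 7 (6.18% of all genes). With the block, limma on log2 TPM called 2 of the 51 it tested (3.49% of its genes), Adgrl2 among them. Blocked limma did not call Gpr37 (adjusted p = 0.0613) or Gpr180 (adjusted p = 0.0632).

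**Figure D2:**
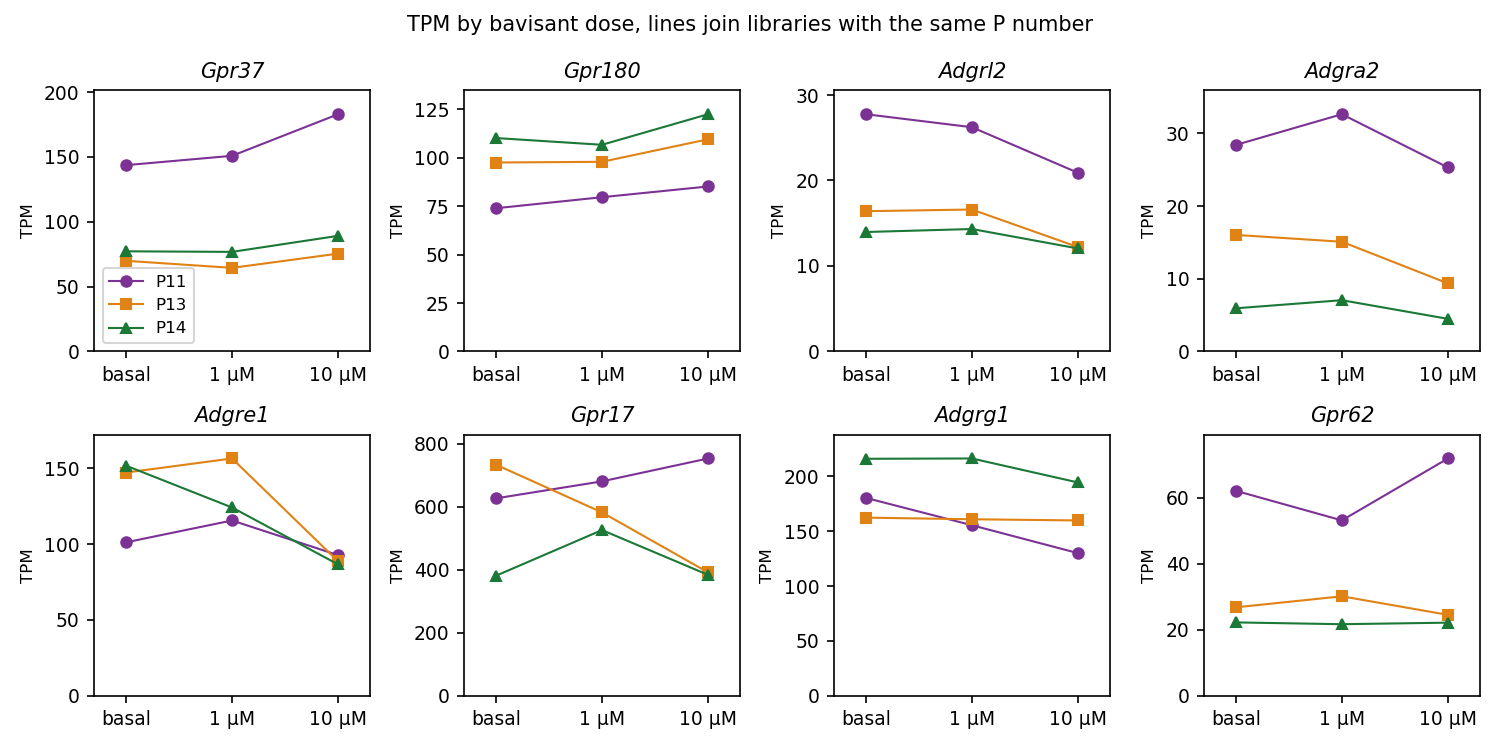
TPM of 8 receptor genes by bavisant dose, each line joining the libraries of 1 P number. Within each P number Adgrl2 ends lowest at 10 µM, Gpr37 and Gpr180 end highest, and the lines of Gpr17 run in different directions.

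Promoters are shown for 3 of the 4 receptors called with the block at 10 µM against basal, because Gpr37 and Gpr180 moved one way and Adgrl2 the other. RefSeq's promoter table (build GRCr8, 250 bases before to 50 after the start) matched 72 of the 97 receptors, these 3 among them. Both strands were searched for CAGCTG (an E box of the kind bound by Olig2), for AACAAT or ATTGTT (a SOX element) and for TGACG or CGTCA (part of a cAMP response element); matches are in capitals.
Gpr37, chr4:55126371-55126670, minus strand: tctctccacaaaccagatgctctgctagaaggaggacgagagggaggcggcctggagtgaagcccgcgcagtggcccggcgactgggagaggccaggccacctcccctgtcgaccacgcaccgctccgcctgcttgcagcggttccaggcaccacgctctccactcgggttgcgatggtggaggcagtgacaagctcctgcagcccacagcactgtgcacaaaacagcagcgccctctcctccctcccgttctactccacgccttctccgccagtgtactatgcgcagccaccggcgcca
Gpr180, chr15:101606681-101606980, plus strand: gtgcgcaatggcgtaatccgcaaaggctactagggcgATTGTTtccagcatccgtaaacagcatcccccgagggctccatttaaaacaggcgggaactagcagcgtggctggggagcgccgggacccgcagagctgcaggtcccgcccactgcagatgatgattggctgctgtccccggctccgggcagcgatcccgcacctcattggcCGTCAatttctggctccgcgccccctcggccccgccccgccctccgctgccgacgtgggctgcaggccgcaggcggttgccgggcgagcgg
Adgrl2, chr2:240495250-240495549, minus strand: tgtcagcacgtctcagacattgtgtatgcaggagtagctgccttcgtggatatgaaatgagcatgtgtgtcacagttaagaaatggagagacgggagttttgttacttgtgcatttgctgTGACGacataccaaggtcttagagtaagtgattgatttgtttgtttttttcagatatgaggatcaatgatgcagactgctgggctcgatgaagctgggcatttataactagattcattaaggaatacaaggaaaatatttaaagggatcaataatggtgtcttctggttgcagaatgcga
The Gpr37 window held none of these letters, that of Gpr180 held ATTGTT and CGTCA once each, and that of Adgrl2 held TGACG once. Over the 72 receptor promoters and all 27457 in the table, CAGCTG was found in 25.0% and 15.1%, AACAAT or ATTGTT in 6.94% and 11.6%, and TGACG or CGTCA in 27.8% and 22.0%. A match is only a string of letters in this window.

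Most other receptors lay slightly below 0 at 10 µM. With the block 46 of the 64 tested had a negative log2 fold change (71.9%, against 52.8% of all genes), and their median was −0.17, against −0.01 for all genes. Among adhesion receptors 13 of 15 were negative, with a median of −0.18. In TPM, 9 receptors had all 10 µM libraries below all basal libraries, where 8.12% of all genes did, among them Adgre1, Adgrl1, Gpr137b, Gpr137c, Gpr146, Gpr149, Gpr179 and Gpr52. None had all above, where 1.93% of all genes did.

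Among the receptors of the oligodendrocyte lineage, Gpr17 had differences of opposite sign within the P numbers. In P11, P13 and P14 it had 627, 734 and 381 TPM in basal cultures, 681, 582 and 526 TPM at 1 µM and 754, 392 and 384 TPM at 10 µM. Its within-P differences at 10 µM were 0.32, −0.78 and 0.08, and the blocked log2 fold change of −0.13 ± 0.19 was not called (edgeR adjusted p = 0.718). Gpr62 had a log2 fold change of 0.28 ± 0.13 (adjusted p = 0.268), of which P11 gave 0.55 and P14 only 0.03. Adgrg1, the receptor for collagen III and transglutaminase 2, had 130.0, 159.8 and 194 TPM at 10 µM and 180.4, 162 and 216 TPM in basal cultures, a difference of −0.14 ± 0.09 (adjusted p = 0.359). Gpr37l1 differed by 0.10 ± 0.05 (adjusted p = 0.306), while 4 of 10 astrocyte markers were called lower with the block (Acsbg1, Slc1a2, Slc1a3, Slc4a4).

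The receptors of myeloid cells were led by Adgre1. It measured 101, 147 and 152 TPM in basal cultures, 116, 157 and 124 TPM at 1 µM and 92.7, 88.7 and 86.6 TPM at 10 µM. All 10 µM libraries lay below the others, although P11 showed little of it, with within-P differences of −0.10, −0.63 and −0.78. The blocked log2 fold change was −0.51 ± 0.12 and was not called (edgeR adjusted p = 0.058). Gpr34, a lysophosphatidylserine receptor of microglia, differed by −0.16 ± 0.11, Gpr84, which senses medium-chain fatty acids, by −0.18 ± 0.15, Gpr183, which senses oxysterols, by −0.16 ± 0.26 and Adgre5 (CD97) by −0.14 ± 0.13, none called. In the list of 17 myeloid and immune receptors 11 were tested and 0 were called by edgeR with the settings above, DESeq2 or limma, with or without the block. Blocked edgeR did call Adgre1 with library totals, with a mean of at least 100 reads and without the 10 µM library of P11. In that list 1, Adgre1, had an unadjusted p under 0.05 in edgeR, and 1 lay above 0 with the block, with a median of −0.17. The list summed to 119 to 125 TPM at 10 µM and 127 to 192 TPM in basal cultures. Of 14 microglial markers, all detected in every library, 3 were called lower with the block (Cd68, Itgam, Mrc1), and their sum was 931 to 1095 TPM at 10 µM and 984 to 1412 TPM in basal cultures. The part of these markers in the receptor values was not tested.

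Of 24 tested receptors in the list of those enriched in neurons, 4 lay above 0 with the block, and the median was −0.27. Of 8 tested neuronal markers 4 were called lower with the block (Gad1, Gad2, Slc32a1, Stmn2), and the list summed to 208 to 357 TPM at 10 µM and 238 to 499 TPM in basal cultures, with Slc17a7 at 0 in some libraries. Their part in the receptor values was not tested. Gpr149 differed by −0.61 ± 0.15 (edgeR adjusted p = 0.065), and Gpr158 by −0.48 ± 0.27 (adjusted p = 0.339). Gpr179 differed by −1.56 ± 0.36 (adjusted p = 0.055) at a level of 0.043 to 0.096 TPM at 10 µM and 0.123 to 0.164 TPM in basal cultures. Of 8 tested genes in the list of Golgi and lysosomal membrane proteins 6 lay above 0, with a median of 0.07, and Gpr180 was the one called. Gpr137 had a log2 fold change of 0.19 ± 0.05 (adjusted p = 0.081), Gpr107 of 0.07 ± 0.05, Gpr89b of 0.08 ± 0.05, Gpr155 of 0.08 ± 0.05 and Gpr108 of 0.01 ± 0.05.

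The remaining adhesion receptors were not called at 10 µM against basal in the blocked edgeR fit. Adgrg6 (GPR126), which Schwann cells need to myelinate, differed by −0.40 ± 0.12 (edgeR adjusted p = 0.092), and was called by blocked DESeq2 and by blocked edgeR without the 1 µM library of P13. The very large receptor Adgrv1 differed by −0.71 ± 0.22 (adjusted p = 0.114) at about 1.04 TPM, Adgrb2 by −0.04 ± 0.04 and Adgrb3 by −0.07 ± 0.07. Gpr161, a receptor of the primary cilium that restrains hedgehog signalling, differed by −0.26 ± 0.09 (adjusted p = 0.135).

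**Figure D3:**
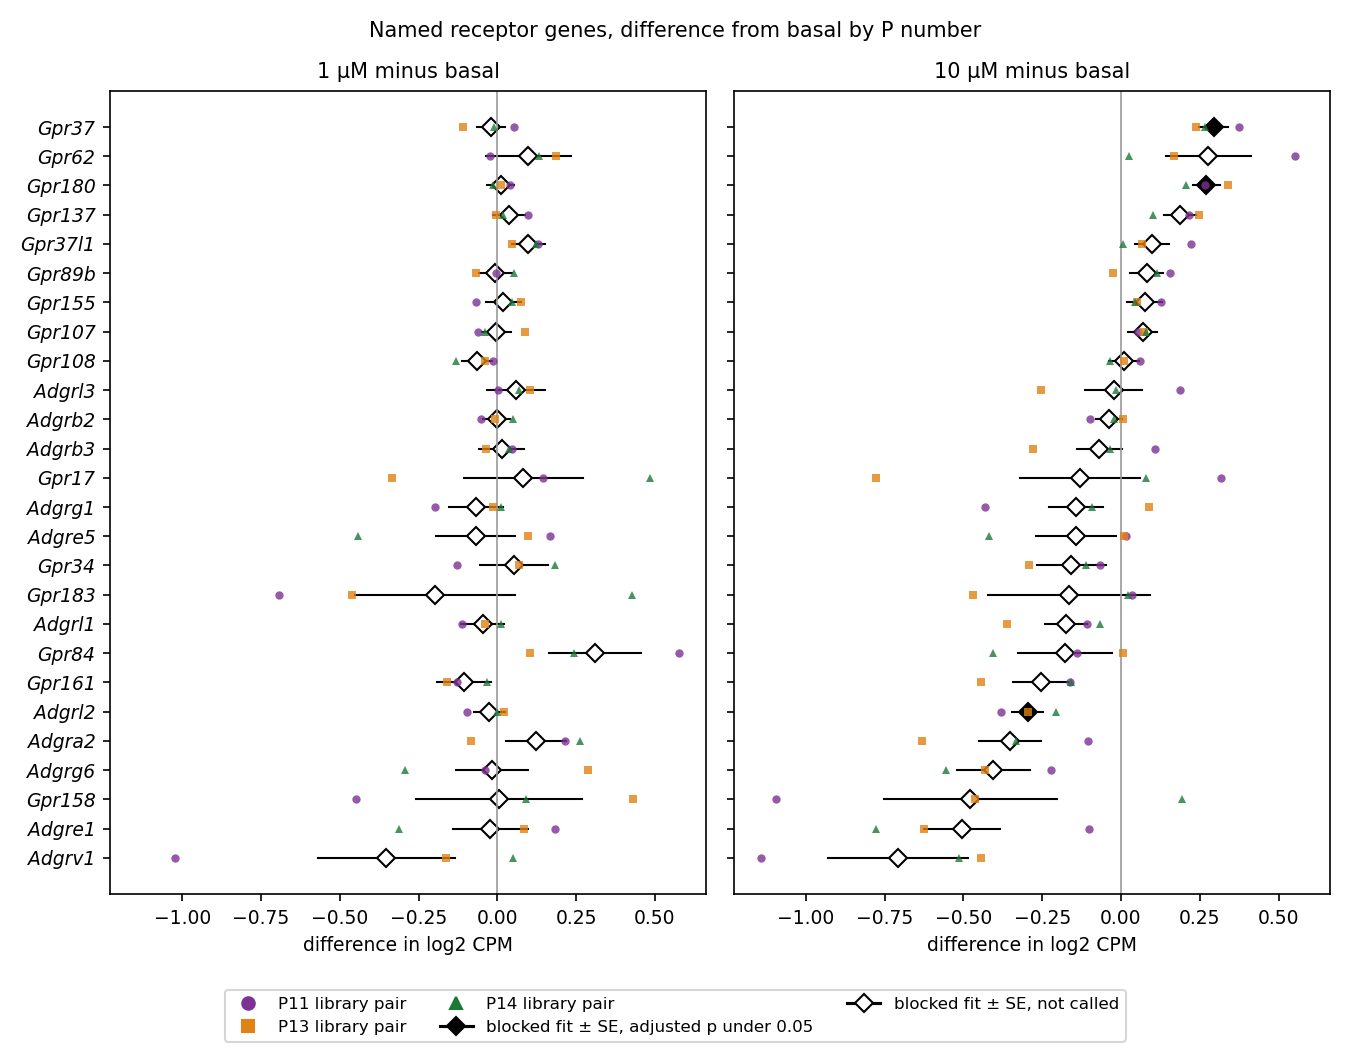
Difference in log2 CPM from basal for 26 tested receptor genes, at 1 µM (left) and 10 µM (right). Small coloured points are the differences within P11, P13 and P14, and diamonds with lines are the fit with P number as a block ± SE, filled where the adjusted p was under 0.05. Filled diamonds occur at 10 µM only, for Adgrl2 below 0 and for Gpr180 and Gpr37 above 0.

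At 1 µM no receptor was called against basal, with or without the block, and neither was any other gene by edgeR (0% of 15321). With the block 1 receptor had an unadjusted p under 0.05, without it none did; DESeq2 called 0.0326% of all genes, or 0.0522% with the block, none of them a receptor, and limma called none. Receptors called at the higher dose lay near 0 here, with Gpr37 at −0.02 ± 0.05, Gpr180 at 0.01 ± 0.04 and Adgrl2 at −0.03 ± 0.05 on the log2 scale. Gpr84 was at 0.31 ± 0.15. No receptor had all 1 µM libraries above or below all basal libraries in TPM, where 1.53% and 1.25% of all genes did.

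Between the doses, 10 µM against 1 µM, no receptor was called without the block (0% of all genes), where 3 receptors and 717 genes had an unadjusted p under 0.05 and DESeq2 (0.431% of all genes) and limma (0%) called no receptor. With the block 5 were called, 7.81% of those tested against 4.3% of all genes, 2 of them higher (1.31% of all genes) and 3 lower (3% of all genes). Library totals gave 6 receptors (6.04% of all genes) and DESeq2 6 (6.44% of all genes). Limma called 2 of the 51 it tested (3.15% of its genes), without Gpr37 (adjusted p = 0.055) and Gpr180 (adjusted p = 0.0903). In TPM 12 receptors had all 10 µM libraries below all 1 µM libraries and 0 above, as did 7.73% and 1.59% of all genes. This comparison shares its 10 µM libraries with the one against basal, so its values are not separate evidence. The log2 fold changes included 0.31 ± 0.05 for Gpr37 (edgeR adjusted p = 0.017), 0.26 ± 0.04 for Gpr180 (0.023), −0.27 ± 0.05 for Adgrl2 (0.028) and −0.47 ± 0.10 for Adgra2 (0.037). Leaving out any 1 µM library, or the 10 µM library of P14, ended all 5 calls. Without the 10 µM library of P13 or the basal library of P14 the calls of Gpr37 and Gpr180 were left. Without the basal library of P11 or P13 all 5 remained, and without the 10 µM library of P11 that of Adgrl2 was among those lost. Over these fits the adjusted p ran from 0.0256 to 0.0821 for Gpr37, from 0.0352 to 0.102 for Gpr180, from 0.0415 to 0.109 for Adgrl2 and from 0.0201 to 0.135 for Adgra2.

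Adgra2 (GPR124, ENSRNOG00000012991), which in mouse brain endothelium serves Wnt7 signalling as a co-receptor, was called between the doses in the blocked edgeR fit but not against basal. It had 28.4, 16.0 and 5.93 TPM in basal cultures, 32.6, 15.1 and 7.04 TPM at 1 µM and 25.3, 9.36 and 4.48 TPM at 10 µM. The groups overlapped widely, P11 was on average 4.95 times P14, and within each P number the 10 µM library was the lowest. Against basal the blocked log2 fold change was −0.35 ± 0.10 (edgeR adjusted p = 0.085); blocked DESeq2, and blocked edgeR without the 10 µM library of P11, did call it there. Of 6 tested endothelial markers Cdh5 and Eng were called lower between the doses, with sums of 12.4 to 26.5 TPM at 10 µM and 20.5 to 37.5 TPM at 1 µM and Cldn5 at 0 in some libraries. Of 6 tested mural and fibroblast markers Col1a1 and Dcn were called lower and 2 lay above 0. The list summed to 61.7 to 178 TPM at 10 µM and 73.2 to 236 TPM at 1 µM, with Rgs5 at 0 in some libraries. Cspg4, which is also in the OPC list, gave 36.0 of the 61.7 TPM in the 10 µM library of P14. The part of these markers in the Adgra2 result was not tested.

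Receptor levels differed more between P numbers than between doses. Of the 64 tested receptors 31 (48.4%) differed among P11, P13 and P14 in an edgeR quasi-likelihood F test with dose in the model, against 51.5% of all genes, a share near the background. DESeq2 called 27 of them (44.9% of all genes). Limma on log2 TPM called 22 of the 51 receptors it tested (48.8% of its 14371 genes). Among the 49 receptors at 1 TPM or more, the highest P mean exceeded the lowest by a median of 1.35-fold, and the highest dose mean the lowest by 1.20-fold. The P ratio was the larger in 34 of the 49; it reached at least 2-fold in 8, with a maximum of 7.82-fold, and the dose ratio reached 2-fold in none.

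Gpr37 averaged 159, 69.9 and 81.1 TPM in P11, P13 and P14 (adjusted p = 2.61e-06), and Gpr62 62.3, 27.1 and 22.0 TPM (adjusted p = 7.49e-05). P11 was thus the highest for both oligodendrocyte receptors, while the summed markers of mature oligodendrocytes in basal cultures were 39436.5, 34767 and 38966 TPM. Adgra2 averaged 28.8, 13.5 and 5.82 TPM (adjusted p = 3.57e-06) and Gpr4, a proton-sensing receptor, 4.57, 1.42 and 0.585 TPM (adjusted p = 0.00015). The summed mural and fibroblast markers followed the same order, at 247, 117 and 65.7 TPM in basal cultures. Col1a1 gave 197, 65.1 and 23.0 TPM of this, while Cspg4, also in the OPC list, went the other way (17.7, 28.1 and 32.1 TPM). The summed endothelial markers kept the order too, at 34.3, 29.9 and 18.4 TPM, with Cdh5 at 18.8, 7.89 and 1.91 TPM. Some endothelial markers did not, such as Eng (10.5, 17.3 and 13.9 TPM) and Esam (1.13, 2.23 and 1.34 TPM), lowest in P11.

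Other receptors were lowest in P11. Gpr34 averaged 7.30, 13.4 and 14.8 TPM (edgeR adjusted p = 0.00028), Gpr183 1.08, 3.77 and 2.47 TPM (adjusted p = 0.0023) and Gpr27, an orphan receptor of the nervous system, 2.67, 5.19 and 7.47 TPM (adjusted p = 0.0052). Microglial markers summed to 984, 1412 and 1185 TPM and neuronal markers to 238, 499 and 446 TPM in the basal cultures, also lowest in P11. By contrast Gpr17 was highest in P11, averaging 687, 569 and 430 TPM (edgeR adjusted p = 0.024). The part of the cell type markers in these differences was not tested.

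**Figure D4:**
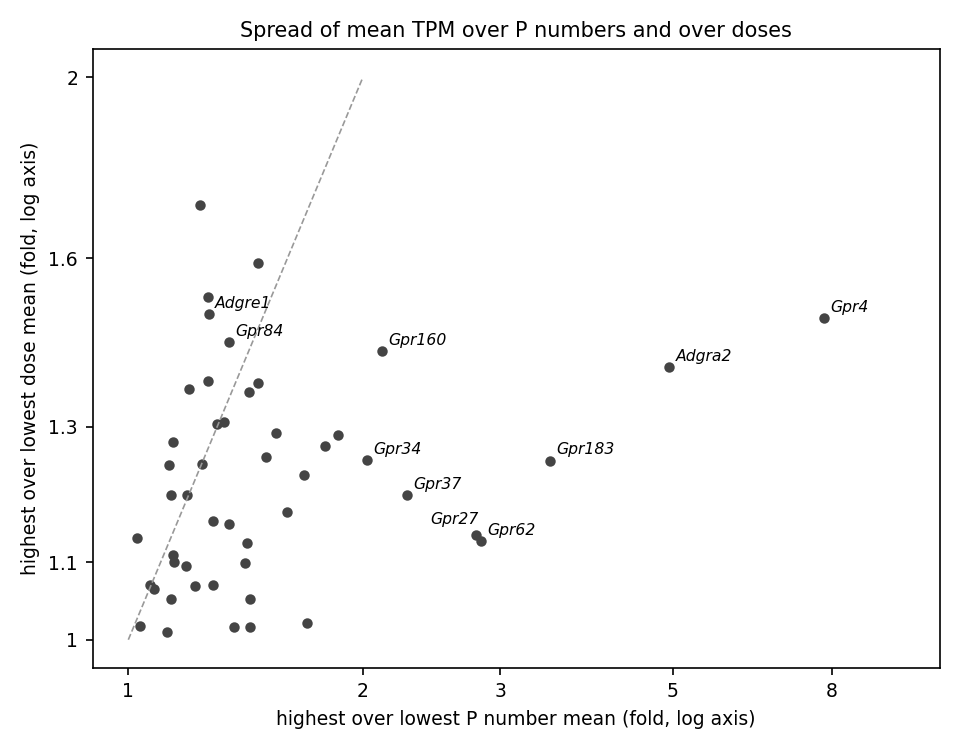
Ratio of the highest to the lowest mean TPM over the 3 P numbers (x axis) and over the 3 doses (y axis), both on log axes, for the 49 receptor genes at 1 TPM or more. Each point is 1 gene and the dashed line marks equal ratios; 34 points lie on the P side, with Gpr4 farthest at 7.82-fold.

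The partners of these receptors were taken from lists of the pathway. None of 13 G protein alpha subunits and none of 7 receptor kinases and arrestins was called at 10 µM against basal with the block by edgeR, DESeq2 or limma, though 5 and 1 of them had an unadjusted p under 0.05 in edgeR. Of 13 tested beta and gamma subunits, Gng12 was higher (log2 fold change 0.24 ± 0.04, at a mean of 830.3 TPM) and Gng2 (−0.33 ± 0.05) and Gng7 (−0.52 ± 0.09) were lower. In the blocked edgeR fit 1.32% of all genes were called higher and 2.64% lower. Blocked DESeq2 called 4 of these subunits (6.18% of all genes) and blocked limma 5 (3.49% of its genes). All 9 tested adenylyl cyclases lay below 0, as did 52.8% of all genes, but several were within 1 SE of it (Adcy9 at −0.008 ± 0.097). Adcy7 was the one called (edgeR adjusted p = 0.045), and blocked limma called 0 of them. It had 2.47, 2.81 and 3.42 TPM at 10 µM and 3.06, 5.41 and 4.95 TPM in basal cultures. Of 16 tested RGS proteins, which shorten G protein signals, Rgs8 was called (−0.70 ± 0.08), while blocked DESeq2 called 1 and blocked limma 2. Without the block no gene of these lists was called, and none was called at 1 µM against basal in either fit.

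Of 25 tested ligands and binding partners, 3 fell at 10 µM with the block in edgeR and none rose. In that fit 2.64% of all genes were called lower and 1.32% higher. Blocked DESeq2 called 9 of the list (6.18% of all genes) and blocked limma 3 (3.49% of its genes). Tgm2, the transglutaminase bound by Adgrg1, differed by −0.49 ± 0.08 (edgeR adjusted p = 0.023), with 21.3, 9.21 and 3.08 TPM at 10 µM and 26.9, 15.8 and 4.71 TPM in basal cultures. Tenm2 and Tenm4, teneurins that latrophilins bind, differed by −0.83 ± 0.12 (adjusted p = 0.016) and −0.68 ± 0.14 (adjusted p = 0.035), at mean levels of 1.31 and 3.76 TPM. Col3a1, the other Adgrg1 ligand, differed by −0.48 ± 0.12 and was not called (adjusted p = 0.058). Psap, the prosaposin precursor linked to Gpr37 and Gpr37l1, was abundant at 1059.7 TPM and differed by −0.09 ± 0.05 (adjusted p = 0.297).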

How the data were processed

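The 9 libraries were poly(A)-selected stranded RNA-seq of rat OPC cultures, per the labels' protocols. The submitters' processing notes name DRAGEN, Picard, Trimmomatic and FastQC, with build rn6. Which counter, annotation and strand setting were used is not given in the sources used here, so overlapping and antisense genes cannot be told apart. The authors deposited an estimated count of reads per gene (92.7% of values whole, not normalized) and TPM, scaled by them to gene length and library. Here the counts were rounded, filtered with filterByExpr (minimum count 10, minimum total 15), scaled by TMM and tested with edgeR 4.0.16 (R 4.3.3; quasi-likelihood, all 9 libraries, 1 coefficient per dose, Benjamini-Hochberg over 15321 genes). The deposited TPM values served for levels and, as log2(TPM + 1), for limma 3.58.1. Limma was run on genes at 1 TPM or more in at least 3 libraries, which left 14371 genes with 51 receptors. DESeq2 1.42.0 was another alternative. SE is the fold change divided by the root of F.

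Pairing was checked before calls were compared: all 9 pairs with the same P number correlated in their deviations from group means (r = 0.32 to 0.77), against −0.71 to 0.19 for other pairs across groups, so values with P number as a block stand beside those without. Because each group was centred on its own mean, positive same-P values push the other pairs toward negative values, so the ranges are not independent. No libraries were duplicates (chi-square per degree of freedom of at least 23.3 within groups). Scripts were tested on simulated data. Named genes were all called receptors, the 12 highest in TPM and a core list; Gpr4, Gpr27, Gpr35, Gpr149 and Gpr179 were singled out after their values were seen. Some results that the rules would name are not reported here. Members, lists and rules were chosen with earlier results of these data known. Read intervals and floors cover counting error only.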

Additional observations from a re-analysis of the deposited data

How the results depend on the processing

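Without the block the number of receptors called stayed at 0 in all 3 dose comparisons under DESeq2 size factors, library totals, no filter, a mean of at least 100 reads, limma on TPM with a pseudocount of 1 or 0.1, the groups compared alone and each library left out; DESeq2 called 1 at 10 µM against basal. With P number as a replicate block, 10 µM against basal gave 4 calls, 4 with DESeq2 size factors, 7 with library totals (adding Adgre1, Gpr149 and Gpr179), 5 with a mean of at least 100 reads (adding Adgre1), 2 with limma on TPM (Adgrl2 among them), 7 in DESeq2 (adding Adgra2, Adgrg6 and Gpr149), 0 to 5 without 1 library and 0 without all P11 libraries. The blocked 10 µM against 1 µM comparison gave 5, 5, 6, 5, 2 and 6 calls under the same settings and 0 to 6 without 1 library. At 1 µM against basal the block gave 0 calls under each setting. The count over P numbers was 31, and 23 to 32 without 1 library. It was 20 with a mean of at least 100 reads, 27 in DESeq2 and 22 of 51 tested with limma on TPM. The stricter filter on reads and the TPM filter of limma also left fewer receptors to test. The causes of the other shifts were not tested. Over all genes the block moved the calls at 10 µM against basal to 607 and at 10 µM against 1 µM to 659, each against 0 without it. No called value changed sign under any alternative run. Depth limits the 33 untested receptors, which had at most 55 reads over all libraries.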

Other observations

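Gpr35, a receptor of gut and immune cells below the test's filter, had 0 reads in each basal library, 3, 4 and 2 reads in P11, P13 and P14 at 1 µM and 8, 3 and 3 reads at 10 µM; it was picked after these values were seen. Gpr152 and Gpr171, with at most 2 reads in any treated library, were among the other untested receptors with 0 reads in the basal libraries. The observed level was 2.23 times the limit that 0 reads allow over the basal group (3 reads, 0.0344 CPM) at 1 µM (0.0769 CPM). At 10 µM (0.12 CPM) it was 3.5 times that limit. The few treated reads carry a counting error of their own, so these ratios are not lower bounds of a fold change. The basal libraries were also the shallowest, at 23919373 to 33472910 reads. With the filter removed and P number as a block, an alternative added after the data were seen, edgeR gave an adjusted p of 0.133 at 10 µM against basal, and 0.996 without the block. At 1 µM against basal the adjusted p was 1 with and without the block.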
